A study of Homo sapiens with 19 samples.

Results

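The 38 genes described here encode the glycolytic enzymes, the glucose and lactate carriers around them, the hypoxia-inducible factor (HIF) subunits and a set of well known HIF targets. They were taken from a list of gene symbols, matched through Ensembl identifiers, and all 38 were found among the 44717 gene identifiers listed for any sample. RNA-seq counts were compared after lentiviral short hairpin RNA (shRNA) silencing of BRG1 (the SWI/SNF chromatin remodelling ATPase encoded by SMARCA4) or of MITF (the melanocyte lineage transcription factor) with a scrambled hairpin (shSCR). In 501Mel, a human melanoma line, shBRG1 was set against shSCR1 with 3 samples each, and shMITF against a separate scramble group, shSCR2, with 2 samples each. In Hermes 3A, an untransformed immortalised human melanocyte line grown with TPA, cholera toxin, stem cell factor and endothelin-1, the shSCR, shBRG1 and shMITF groups held 3 samples each, so that both Hermes 3A comparisons shared their controls. Each target was silenced with a single hairpin construct, the labels do not say whether samples of a group were separate cultures, and p-values therefore measure the spread between these samples, which may be technical.

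Glycolysis converts glucose to pyruvate in the cytosol, beginning with uptake by the GLUT carriers and phosphorylation by hexokinase, passing the committed phosphofructokinase step, and ending with pyruvate kinase. Pyruvate is then reduced to lactate by lactate dehydrogenase or enters mitochondria, where pyruvate dehydrogenase kinases restrain its oxidation. HIF1A or EPAS1 (HIF-2 alpha) pairs with ARNT and binds a short core element in DNA, and in oxygenated cells the prolyl hydroxylases EGLN1 and EGLN3 mark the alpha subunits for degradation, a control that acts on protein and is not read by RNA counts. Many glycolytic genes are HIF targets and are also high in many tumour lines in oxygenated culture.

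The core of the HIF element, ACGTG or GCGTG, was searched on both strands in RefSeq promoter windows (GRCh38.p14) that run from 250 bases before to 50 bases after an annotated start. Windows were found for 35 of the 38 genes, and none was matched for SLC2A3, BNIP3L and NDRG1. The core stood in 41 of the 62 windows of these genes, or 66.1%, and in 48.4% of all 35116 windows in the table. The E-box CACGTG, which contains ACGTG on both strands and is also a site for MITF-type factors, stood in 12.9% of the member windows and 7.26% of all windows, and the extended MITF motif TCATGTG in 1.61% and 2.92%. Some genes have several windows, so windows are not independent of each other. The 6 windows below belong to genes on which the results turn and which have a single window. They are printed 5′ to 3′ on the strand of the gene, with each core, read on either strand, in capitals. SLC2A1 stands for the shMITF response in 501Mel, EPAS1, ENO2 and PDK3 for the fall with shBRG1, and BNIP3 and ADM for genes that rose there.
SLC2A1 (chr1:42958819-42959118, minus strand): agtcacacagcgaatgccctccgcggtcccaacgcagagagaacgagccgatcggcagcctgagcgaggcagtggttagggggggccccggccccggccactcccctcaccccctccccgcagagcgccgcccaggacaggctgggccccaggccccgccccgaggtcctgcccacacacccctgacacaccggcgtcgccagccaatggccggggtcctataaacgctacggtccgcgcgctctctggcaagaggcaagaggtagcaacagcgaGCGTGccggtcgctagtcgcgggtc
EPAS1 (chr2:46297157-46297456, plus strand): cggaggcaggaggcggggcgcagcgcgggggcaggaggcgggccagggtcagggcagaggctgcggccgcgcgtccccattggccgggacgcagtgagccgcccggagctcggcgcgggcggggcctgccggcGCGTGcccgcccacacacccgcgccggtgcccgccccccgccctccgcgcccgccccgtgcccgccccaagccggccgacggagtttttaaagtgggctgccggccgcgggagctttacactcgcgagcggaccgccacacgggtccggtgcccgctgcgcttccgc
ENO2 (chr12:6914330-6914629, plus strand): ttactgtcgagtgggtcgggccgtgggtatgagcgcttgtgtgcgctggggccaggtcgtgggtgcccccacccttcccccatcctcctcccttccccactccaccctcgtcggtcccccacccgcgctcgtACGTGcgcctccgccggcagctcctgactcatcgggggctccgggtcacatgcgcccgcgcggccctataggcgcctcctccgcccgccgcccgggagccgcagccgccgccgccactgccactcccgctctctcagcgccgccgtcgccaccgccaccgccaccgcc
PDK3 (chrX:24465036-24465335, plus strand): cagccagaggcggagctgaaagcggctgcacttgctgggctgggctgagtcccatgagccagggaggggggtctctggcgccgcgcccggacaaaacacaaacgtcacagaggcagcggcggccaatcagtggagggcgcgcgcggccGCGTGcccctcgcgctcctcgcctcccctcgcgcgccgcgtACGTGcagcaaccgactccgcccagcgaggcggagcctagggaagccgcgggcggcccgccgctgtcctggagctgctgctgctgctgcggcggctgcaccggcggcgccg
BNIP3 (chr10:131981874-131982173, minus strand): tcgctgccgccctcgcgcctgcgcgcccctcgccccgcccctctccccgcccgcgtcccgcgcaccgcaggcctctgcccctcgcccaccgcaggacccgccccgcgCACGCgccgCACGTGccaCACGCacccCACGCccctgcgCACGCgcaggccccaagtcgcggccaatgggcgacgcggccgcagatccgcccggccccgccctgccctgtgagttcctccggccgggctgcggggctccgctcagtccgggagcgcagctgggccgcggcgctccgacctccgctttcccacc
ADM (chr11:10304823-10305122, plus strand): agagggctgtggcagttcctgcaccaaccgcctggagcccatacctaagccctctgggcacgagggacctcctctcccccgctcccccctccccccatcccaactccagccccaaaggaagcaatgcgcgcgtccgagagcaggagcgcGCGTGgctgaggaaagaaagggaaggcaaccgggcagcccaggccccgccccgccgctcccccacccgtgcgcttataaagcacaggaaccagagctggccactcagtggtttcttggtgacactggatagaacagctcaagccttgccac

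A core occurs in each of these windows, once in SLC2A1, EPAS1, ENO2 and ADM, with 2 matches in PDK3 and 6 in BNIP3, the last including the E-box. Each E-box is counted as a match on both strands, here and in the counts below. The single core of SLC2A1 lies 25 bases after the start, and those of EPAS1 and ENO2 begin 117 and 118 bases before it. Genes with few and with many cores were found among those that fell and those that rose. PFKP, the gene with the lowest log2 fold change of the abundant members after shBRG1 in 501Mel, has 4 windows with 0, 0, 1 and 3 cores, and LDHA, which rose slightly there, has windows with 6 and 1. These matches describe letters and not binding.

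Total counts ranged from 29158502 to 78857900 per sample. SMARCA4 had a log2 fold change of -2.36 (SE 0.054) with shBRG1 in 501Mel and of -2.38 (SE 0.048) in Hermes 3A. MITF had a log2 fold change of -1.06 (SE 0.14) with shMITF in 501Mel and of -0.85 (SE 0.19) in Hermes 3A, and with shBRG1 it was -1.55 and -0.43. The 501Mel value with shMITF lay just under the fold threshold without shSCR2 replicate 2 (-0.99) or shMITF replicate 1 (-0.98), and was -0.58 against the pooled scramble groups. On a scale common to all 19 samples, in RPKM (counts scaled to exon length and library size), MITF stood at 68.8 and 76.1 with shMITF in 501Mel, at 146 and 165 in shSCR2, and at 71.4, 84.1 and 84.8 in shSCR1, so that the silenced samples overlapped the other scramble group. All 7 melanocyte markers examined were detected in both lines. Their summed level was 7531 to 8059 RPKM in 501Mel shSCR1, 791 to 865 with shBRG1, 5205 to 5914 in shSCR2 and 2982 to 3086 with shMITF, and in Hermes 3A it was 16804 to 17123 in shSCR, 7983 to 8417 with shBRG1 and 6999.9 to 9104 with shMITF. The summed level of 10 proliferation genes fell alongside, from 382 to 431 down to 151 to 156 RPKM with shBRG1 in 501Mel and from 310 to 334 down to 217 to 228 in Hermes 3A. With shMITF it went from 730 to 758 down to 430 to 461 in 501Mel and to 198 to 240 in Hermes 3A. Fewer cells in a state and less RNA per cell cannot be told apart in bulk samples, and the part of these shifts in the results on glycolytic genes was not tested. Of 5 leukocyte markers 4 had a level, and they summed to 0.269 to 0.452 RPKM in 501Mel shSCR1 and 1.55 to 1.89 RPKM with shBRG1, to 0.185 to 0.216 RPKM in shSCR2 and at most 1.59 RPKM with shMITF, and to at most 0.456 RPKM in Hermes 3A. PTPRC, which defines leukocytes, was at most 0.0101 RPKM, and LYZ was called up in both 501Mel comparisons. Of 5 keratinocyte markers 2 had a level. Their sum, nearly all KRT10, was 12.6 to 17.4 RPKM in 501Mel, 12.8 to 16.2 RPKM in Hermes 3A shSCR and shBRG1, and 20.3 to 30.2 RPKM in Hermes 3A shMITF. The 6 fibroblast markers summed to 0.677 to 0.982 RPKM in 501Mel shSCR1 and 3.17 to 3.82 RPKM with shBRG1, where 4 of 5 tested were called up, and to 2.27 to 2.68 RPKM in shSCR2 and 1.86 to 3.78 RPKM with shMITF, where 1 of 3 was called up. In Hermes 3A, where COL1A2 led, the sum was 7.85 to 8.98 RPKM in shSCR, 13.4 to 14.2 RPKM with shBRG1 and 10.4 to 20.1 RPKM with shMITF, with 2 of 4 called up in each. Their part in the results was not tested.

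A gene is called here when its Benjamini-Hochberg adjusted p is under 0.05 and its absolute log2 fold change over 1, and values per sample in each comparison are CPM, counts scaled to library size with TMM factors of that comparison. In 501Mel with shBRG1 the glycolytic chain fell almost throughout, mostly by less than the fold threshold, while several HIF targets outside it did not. All 38 genes passed the filter on low counts. None was called up, against 21.7% of the 20514 genes tested, and 10 were called down, against 17.4% of them. Without the fold threshold, 5 rose and 29 fell, against 41.2% and 39.1% of all genes, and the median log2 fold change was -0.68 for the members and 0.05 for all genes. Scaling by library size alone moved the median of all genes to 0.40 and that of the members to -0.33, and gave 1 member called up and 6 down, with 6192 genes called up and 2398 down in place of 4453 and 3571. Among the 12879 genes that averaged 100 counts or more, 11.9% were called up and 20% down, with 0 and 8 of 35 members. The members called down were thus close to the share of such genes. The median and the split without the fold threshold were set only against all genes, including those with few counts.

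**Figure D1:**
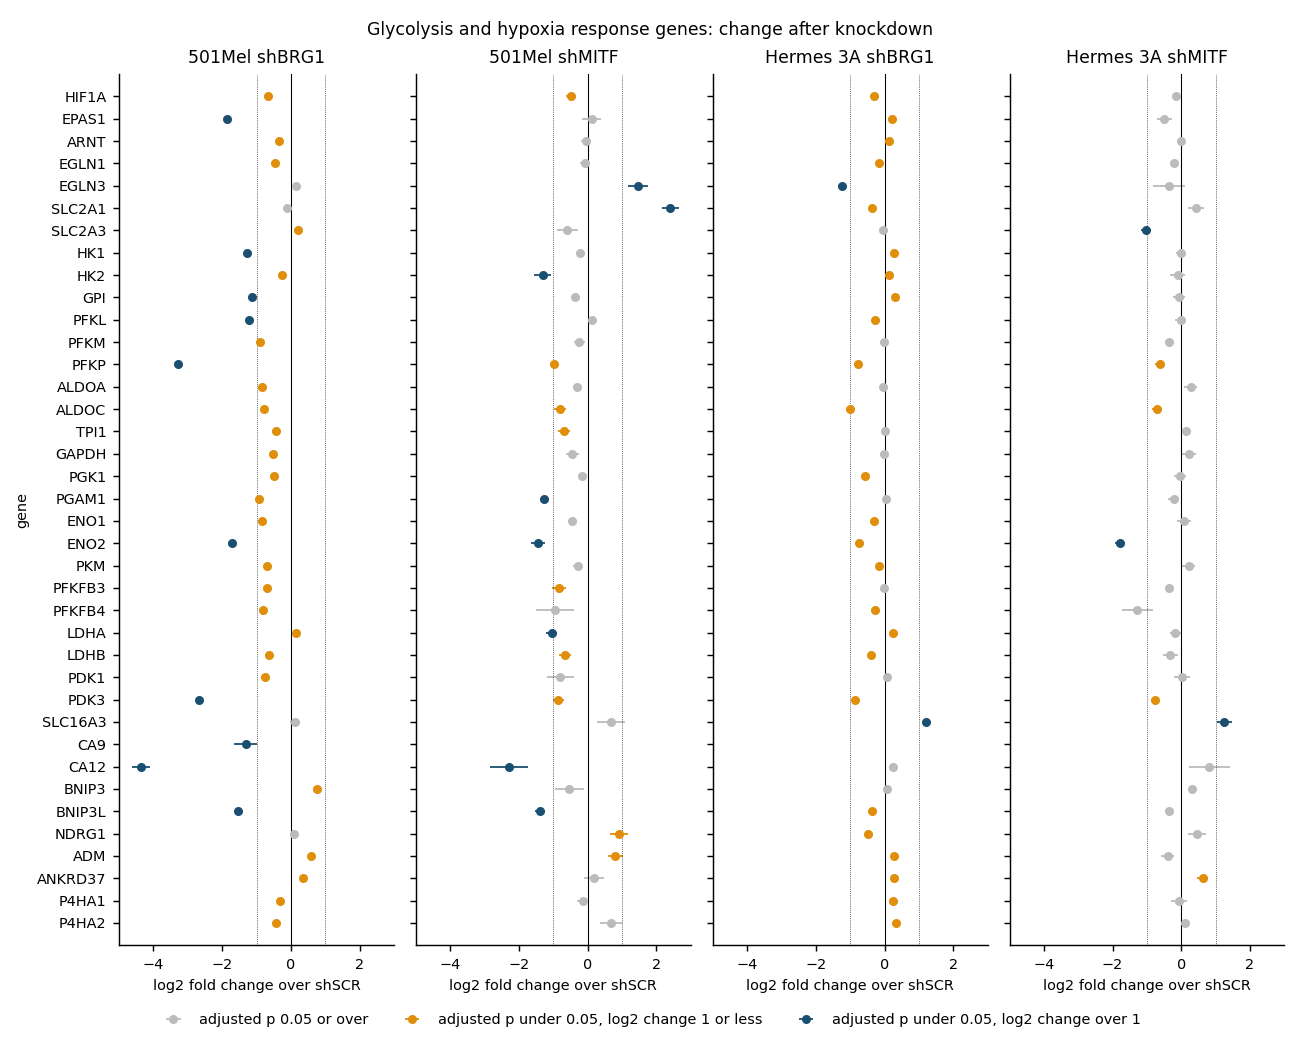
Log2 fold change over the scramble control (horizontal axis) of each of the 38 genes (vertical axis) in the 4 comparisons, with bars for the standard error. Colour gives the outcome of the test, dotted lines mark a log2 fold change of -1 and 1, and a gene below the filter has no point. In 501Mel shBRG1 30 of 38 points lie left of zero, and the points of Hermes 3A shBRG1 gather around zero.

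Phosphofructokinase, which commits sugar to glycolysis, held the abundant member with the lowest log2 fold change. PFKP, its platelet-type isozyme, was at 453, 470 and 449 CPM in shSCR1 and at 44.7, 47 and 48.5 CPM with shBRG1. The groups stood far apart with little spread, and the log2 fold change was -3.29 (SE 0.051, edgeR adjusted p = 5.82e-24). The liver-type isozyme PFKL had a log2 fold change of -1.22 (SE 0.049), from 189 to 205 CPM down to 80.9 to 88.3, and the muscle-type PFKM of -0.90. PFKP made up 67.5% ± 0.37 (SD, n = 3) of the summed RPKM of the 3 isozymes in shSCR1 and 30.4% ± 0.61 (SD, n = 3) with shBRG1. RPKM divides by the joined length of all annotated exons, 4836 bases for PFKP, 8926 for PFKL and 7318 for PFKM. The size of a share depends on these lengths, here and below. With library sizes alone PFKL lay under the fold threshold (-0.87), as did HK1 (-0.94), GPI (-0.80) and CA9 (-0.97), and BNIP3 was called up (1.11). Against the pooled scramble groups PFKL stood at -0.87. The shares of PFKP did not overlap, and phosphofructokinase RNA was thus both lower and differently composed.

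The other steps of upper glycolysis moved in the same direction. HK1, the widely expressed hexokinase, was at 334, 315 and 310 CPM in shSCR1 and at 129, 129 and 135 CPM with shBRG1, a log2 fold change of -1.29 (SE 0.047), whereas HK2, the inducible hexokinase and a HIF target, changed by -0.27. HK2 accordingly rose from 47.9% ± 0.52 to 65.1% ± 0.85 (SD, n = 3 each) of the RPKM of the pair. GPI, the isomerase that follows, fell by 1.15 (SE 0.047), with shSCR1 samples between 283 and 308 CPM and shBRG1 samples between 130 and 137. The aldolases ALDOA and ALDOC fell (log2 fold changes of -0.85 and -0.79), as did the triose isomerase TPI1 (-0.44), none past the fold threshold and each with groups that did not overlap. Of all genes tested in this comparison, 39.4% had every silenced sample below every control and 42% had every one above. A lack of overlap alone therefore does not set a member apart.

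In lower glycolysis all 6 enzymes fell, with log2 fold changes of -0.51 for GAPDH, -0.49 for PGK1, -0.92 for PGAM1, -0.84 for ENO1, -1.72 for ENO2 and -0.69 for PKM. PGAM1 was called against the pooled scramble groups (-1.19). With shSCR1 as control only ENO2, the neuron-type enolase, was called. It was at 718, 652 and 633 CPM in shSCR1 and at 200, 202 and 205 CPM with shBRG1 (SE 0.051, edgeR adjusted p = 3.79e-19), and its share of enolase RPKM went from 19.7% ± 0.74 to 11.8% ± 0.24 (SD, n = 3 each). The regulators PFKFB3 and PFKFB4, which make and remove the activator of phosphofructokinase, fell, with log2 fold changes of -0.69 and -0.82.

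At the fate of pyruvate the members diverged. PDK3, a kinase that inhibits pyruvate dehydrogenase, was at 47.1, 48 and 47.3 CPM in shSCR1 and at 7.24, 6.94 and 8.06 CPM with shBRG1, a log2 fold change of -2.68 (SE 0.066, edgeR adjusted p = 1.46e-20). Its relative PDK1, a HIF target, fell by 0.76. LDHA, the lactate dehydrogenase subunit induced by HIF, was at 676, 629 and 628 CPM in shSCR1 and at 731, 696 and 737 CPM with shBRG1. That is a small rise without overlap, as 42% of all genes tested also showed. The log2 fold change of LDHA was 0.16 (SE 0.048, edgeR adjusted p = 0.00369), and it turned to -0.17 when the control was shSCR1 and shSCR2 together. LDHB fell by 0.62, and its share of the RPKM of the pair went from 65.7% ± 1.67 to 52.6% ± 0.75 (SD, n = 3 each). The lengths used were 6210 bases for LDHA and 2983 for LDHB, which raises the share of LDHB relative to its share of counts.

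**Figure D2:**
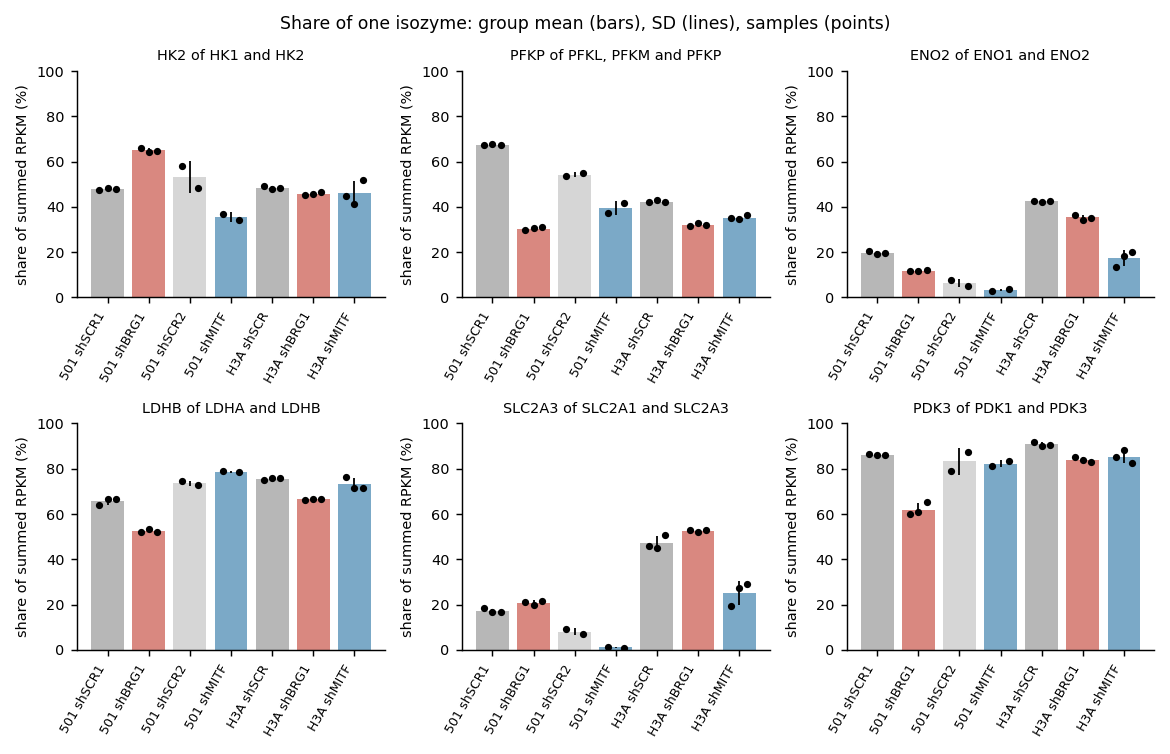
Share of an isozyme in the summed RPKM of its family (vertical axis, percent) in the 7 groups (horizontal axis), as group means (bars), SD (lines) and samples (points). PFKP falls from 67.5% to 30.4% with shBRG1 in 501Mel, and ENO2 from 42.4% to 17.3% with shMITF in Hermes 3A. The size of a share depends on the exon lengths used.

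The glucose carriers did not follow the enzymes. SLC2A1 (GLUT1), the main carrier in most proliferating cells, was at 905, 803 and 780 CPM in shSCR1 and at 770, 792 and 752 CPM with shBRG1, with overlapping groups and a log2 fold change of -0.10 (SE 0.053, edgeR adjusted p = 0.0761). With library sizes alone the value was 0.24, and with both scramble groups as control 0.36. SLC2A3 (GLUT3), a high-affinity carrier, had a log2 fold change of 0.22 (edgeR adjusted p = 0.0187) with overlapping groups of 204 to 266 and 254 to 271 CPM.

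Of the HIF subunits, EPAS1 went from 245, 248 and 242 CPM to 66.4, 65.3 and 69.2 CPM, a log2 fold change of -1.87 (SE 0.046), and HIF1A (-0.67) and ARNT (-0.34) fell by less. EGLN1 fell by 0.45 while EGLN3, itself a HIF target, overlapped between groups at 2.47 to 3.78 CPM. BNIP3L, a mitophagy receptor, was at 215, 207 and 211 CPM in shSCR1 and at 71.9, 69.7 and 77.5 CPM with shBRG1, a log2 fold change of -1.53 (SE 0.049). Its relative BNIP3 went the other way, from 82.8, 66.2 and 63.3 to 123, 116 and 122 CPM, a log2 fold change of 0.76 (SE 0.076). BNIP3 is uncertain because 8 pseudogenes named after it are listed, which together held 14.1 to 24.6% of the counts of the gene and its pseudogenes. ADM, a vasodilator peptide, rose by 0.58 and ANKRD37 by 0.35, NDRG1 was not changed past the test at 0.08, and the collagen prolyl hydroxylases P4HA1 and P4HA2 fell (-0.31 and -0.43). CA12, a carbonic anhydrase of the cell surface, held 114, 130 and 93 counts in shSCR1 and 9, 10 and 2 with shBRG1, a log2 fold change of -4.36 (SE 0.26). CA9, its strongly hypoxia-inducible relative, held 61, 26 and 20 counts and 14, 22 and 19, and its call (log2 fold change -1.32) did not remain against the pooled scramble groups (-0.68, edgeR adjusted p = 0.525) or without shSCR1 replicate 1 (-0.78).

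The scramble groups of 501Mel differed from each other in several of these genes, and the reason was not tested. On the common scale SLC2A1 stood at 165, 145 and 141 RPKM in shSCR1 and at 64.9 and 45.9 RPKM in shSCR2. SLC2A3 stood at 37.1, 29.6 and 28.3 RPKM against 6.57 and 3.44, PFKP at 80.5, 83.1 and 79.4 RPKM against 36.2 and 36.1, and NDRG1 at 5.72, 5 and 4.91 RPKM against 0.726 and 0.771. ENO2 averaged 134 RPKM in shSCR1 and stood at 38.5 and 59.4 in shSCR2, so that the shBRG1 samples (42 to 42.9) overlapped shSCR2. ALDOC averaged 43.8 and 19.1 RPKM, and its shBRG1 samples (26 to 26.8) stood above shSCR2 (16.9 to 21.4). EPAS1 averaged 28.7 and 13.2 RPKM, and its shBRG1 samples (8.01 to 8.47) stood below both scramble groups. GAPDH ran the other way, with means of 507 and 1013 RPKM. Values of shMITF below are relative to shSCR2, its own scramble group, with the pooled control named where it changes a call.

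**Figure D3:**
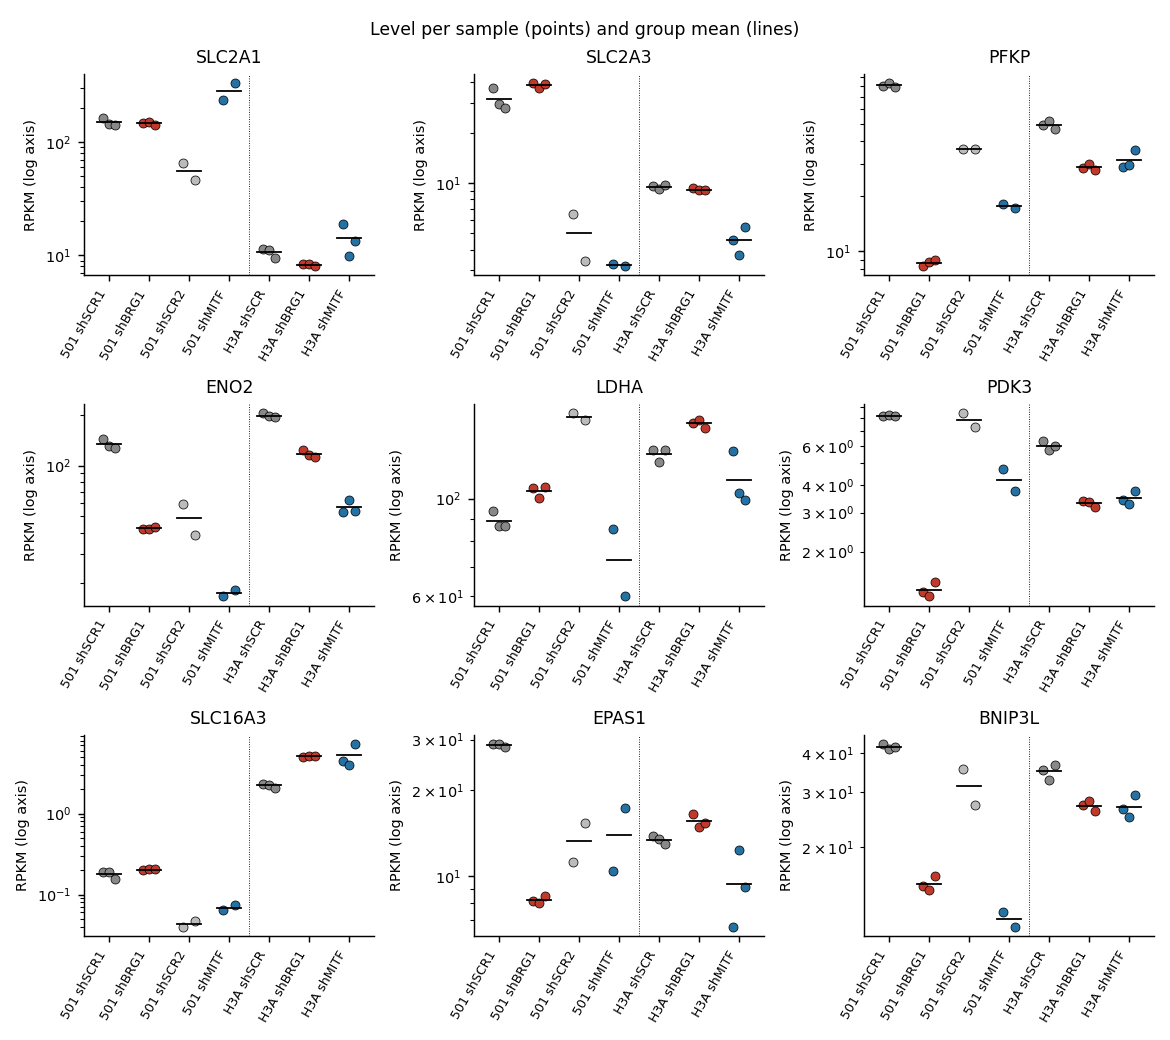
Level of 9 genes in RPKM (vertical log axis) in each sample (points) of the 7 groups (horizontal axis), with lines for group means. SLC2A1 is at 236 and 332 RPKM with shMITF in 501Mel, above all 5 scramble samples of that line, and between 8.04 and 19.1 RPKM in all Hermes 3A samples.

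In 501Mel with shMITF the members moved in both directions. Of 37 tested, 2 were called up, against 5.59% of the 17701 genes tested, and 6 were called down, against 3.4%. Without the fold threshold 4 rose and 13 fell, against 10% and 10.5% of all genes, and the median log2 fold change was -0.44 for the members and 0.01 for all genes. The members' median was -0.19 without shSCR2 replicate 1. The members that fell numbered 8 without shMITF replicate 2 and 3 against the pooled scramble groups, and those that rose 2 and 1. With library sizes alone 4 rose and 12 fell without the fold threshold, and 3 were called up and 5 down with it. Among the 12145 genes that averaged 100 counts or more, 4.77% were called up and 3.58% down, with 2 and 5 of 35 members. Leaving out shMITF replicate 2 left 3 members called down, and leaving out shSCR2 replicate 2 gave 10. Without shMITF replicate 1, 4 members were called up. Against both scramble groups pooled, 1 was called up (EGLN3) and 2 down (HK2 and BNIP3L).

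SLC2A1 had the highest log2 fold change. It was at 304 and 211 CPM in shSCR2 and at 1103 and 1609.8 CPM with shMITF, far apart in both samples, with a log2 fold change of 2.40 (SE 0.25, edgeR adjusted p = 0.00164). Both shMITF samples also stood above the 3 shSCR1 samples on the common scale, and against the pooled scramble groups the log2 fold change was 1.37 (edgeR adjusted p = 0.161). SLC2A3 made up 8.08% ± 1.57 of the RPKM of the 2 carriers in shSCR2 and 1.16% ± 0.29 with shMITF (SD, n = 2 each). EGLN3 went from 2.69 and 2.31 CPM to 7.7 and 5.99 CPM, a log2 fold change of 1.46 (SE 0.29, edgeR adjusted p = 0.00849). NDRG1 and ADM rose by less, with log2 fold changes of 0.91 and 0.80, and NDRG1 turned to -1.29 against the pooled scramble groups.

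Of the 6 genes called down, HK2, PGAM1, ENO2 and LDHA encode glycolytic enzymes, and BNIP3L and CA12 do not. HK2 was at 337 and 198 CPM in shSCR2 and at 118 and 96.6 CPM with shMITF (log2 fold change -1.31, SE 0.26, edgeR adjusted p = 0.0191), and the control samples differed widely from each other. The call was lost without shSCR2 replicate 1 (-0.90) and without shMITF replicate 1 or 2 (edgeR adjusted p of 0.102 and 0.22). PGAM1, the phosphoglycerate mutase, was at 310 and 279 CPM and at 129 and 116 CPM (log2 fold change -1.26, SE 0.13, edgeR adjusted p = 0.000551). ENO2 was at 252 and 160 CPM and at 70.7 and 79.8 CPM (log2 fold change -1.45, SE 0.21). Against the pooled scramble groups PGAM1 had a log2 fold change of -0.91 (edgeR adjusted p = 0.114) and ENO2 of -2.49 (edgeR adjusted p = 0.059).

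LDHA was at 962 and 913 CPM in shSCR2 and at 524 and 382 CPM with shMITF. Its log2 fold change was -1.05 (SE 0.16), and it was -0.64 (edgeR adjusted p = 0.304) against the pooled control and -0.85 without shMITF replicate 2. PFKP (-0.99), PDK3 (-0.86), PFKFB3 (-0.83), ALDOC (-0.82), TPI1 (-0.69), LDHB (-0.65) and HIF1A (-0.50) fell past the test and not past the fold threshold. BNIP3L was at 152 and 114 CPM and at 52.6 and 48.9 CPM, a log2 fold change of -1.39 (SE 0.16, edgeR adjusted p = 0.000909). CA12 held 11 and 35 counts in shSCR2 and 3 and 5 with shMITF, and its call (log2 fold change -2.30) was lost when either shMITF sample or shSCR2 replicate 2 was left out. CA9 did not pass the filter on low counts.

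A direct test of the difference between the 501Mel effects, each relative to its own scramble group, called 2 members above 0, against 11.8% of 22255 genes, and 9 below 0, against 15.5%. This fit shared its estimate of spread across the groups, with a common biological coefficient of variation of 9.91%. In the separate fits it was 4.74% for shBRG1 and 17.4% for shMITF, so the standard errors here may understate the spread of the shMITF set. The shBRG1 effect was above that of shMITF for HK2 by 1.07 (SE 0.26) and for LDHA by 1.24 (SE 0.15). It was below for SLC2A1 by -2.48 (SE 0.24), for PFKP by -2.27 (SE 0.097), for CA12 by -2.02, for EPAS1 by -1.95, for PDK3 by -1.80, for PFKL by -1.32, for EGLN3 by -1.30, for P4HA2 by -1.10 and for HK1 by -1.04 on the log2 scale. These values also take in the gap between the scramble groups. PFKL averaged 18.9 RPKM in shSCR1 and 9.78 in shSCR2, against 8.49 with shBRG1 and 10.4 with shMITF. P4HA2 averaged 4.51 and 1.92 RPKM, against 3.51 and 2.97. SLC2A1 averaged 150 and 55.4 RPKM, against 146 and 284. LDHA averaged 88.9 and 154 RPKM, against 104 and 72.5, and HK2 39.9 and 44.9 RPKM, against 34.7 and 17.6. For PDK3 the scramble groups were close, at 8.21 and 7.87 RPKM, against 1.34 and 4.23. Among the 12648 genes that averaged 100 counts or more, 9.95% were above and 19.6% below, with 2 and 8 of 35 members. With library sizes alone 4 members were above and 7 below, with 3586 genes above and 2665 below in place of 2625 and 3447. The calls of HK2 (without shSCR2 replicate 1 or shMITF replicate 2), CA12 (without shBRG1 replicate 3 or shMITF replicate 2), P4HA2 (without shBRG1 replicate 1 or 3, shSCR2 replicate 2 or shMITF replicate 2) and HK1 (without shBRG1 replicate 1 or 2, shSCR2 replicate 2 or shMITF replicate 1) were lost in fits that left out a sample. BNIP3L and ENO2, called down in both comparisons, were not called in this test.

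In Hermes 3A with shBRG1, where the log2 fold change of SMARCA4 was close to that in 501Mel, few members moved past the fold threshold. Of 37 members tested, 1 was called up, against 5.78% of the 17222 genes tested, and 1 down, against 3.47%. Without the fold threshold 11 rose and 16 fell, against 28.2% and 28.6% of all genes. This split was 17 and 14 with library sizes alone, and 2 and 6 in the fit over all Hermes 3A groups. Most of the smaller changes listed below as past the test thus did not pass it in that fit. The median log2 fold change was -0.02 for the members and 0.01 for all genes. Among the 12303 genes that averaged 100 counts or more, 3.08% were called up and 2.53% down, and the same number of members, 1 and 1 of 37, was counted.

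SLC16A3 (MCT4), the lactate exporter of glycolytic cells, was at 18.9, 18.5 and 16.7 CPM in shSCR and at 40.4, 41.8 and 42.9 CPM with shBRG1. All silenced samples stood above all controls, with a log2 fold change of 1.21 (SE 0.063, edgeR adjusted p = 1.09e-15). EGLN3 went from 7.69, 6.79 and 8.64 CPM to 3.16, 3.33 and 3.38 CPM, a log2 fold change of -1.23 (SE 0.11, edgeR adjusted p = 2.09e-10). Its call was lost in a fit over all Hermes 3A groups (edgeR adjusted p = 0.0602). ALDOC, the brain-type aldolase, lay just inside the fold threshold at -0.99, from 38.1, 36.5 and 36.5 CPM to 18.4, 19.2 and 18.2 CPM, and with it 2 members were called down when shSCR replicate 2, shSCR replicate 3 or shBRG1 replicate 2 was left out.

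Smaller falls past the test were measured for PDK3 (-0.85), PFKP (-0.76), ENO2 (-0.74), PGK1 (-0.57), NDRG1 (-0.47), LDHB (-0.40), SLC2A1 (-0.36), BNIP3L (-0.35) and HIF1A (-0.30). P4HA2 (0.34), GPI (0.29), HK1 (0.28), LDHA (0.24) and EPAS1 (0.23) rose. For HK1 the samples were at 235, 246 and 238 CPM in shSCR and at 296, 289 and 289 CPM with shBRG1, without overlap. In this comparison 31.1% of all genes tested lay above control in every silenced sample, and 30.7% lay below. The PFKP share of phosphofructokinase RPKM was 42.4% ± 0.43 in shSCR and 32.1% ± 0.63 with shBRG1 (SD, n = 3 each), and the LDHB share of lactate dehydrogenase 75.6% ± 0.45 and 66.5% ± 0.15. Both shares thus moved down in Hermes 3A as they did in 501Mel, by fewer percentage points.

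In Hermes 3A with shMITF the samples of the silenced group varied more between themselves, with a common biological coefficient of variation of 21.6%, against 5.75% for shBRG1 in the same line. Of 37 members tested 1 was called up, against 3.35% of the 16508 genes tested, and 2 down, against 4.04%. Without the fold threshold 2 rose and 5 fell, against 7.85% and 9.15%, and the median log2 fold change was -0.08 for the members and 0.05 for all genes. The members that fell numbered 12 without shMITF replicate 1 and 2 without shSCR replicate 1, and those that rose 0 without shSCR replicate 2 or 3 and 5 without shMITF replicate 2. With library sizes alone the median of all genes was 0.14 and 1 member was called down. Among the 11940 genes that averaged 100 counts or more, 2.91% were called up and 3.94% down, with 1 and 2 of 37 members.

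ENO2 had the lowest log2 fold change. It was at 776, 764 and 742 CPM in shSCR and at 207, 245 and 210 CPM with shMITF, far apart, with a log2 fold change of -1.79 (SE 0.14, edgeR adjusted p = 0.00045). Its share of enolase RPKM went from 42.4% ± 0.34 to 17.3% ± 3.55 (SD, n = 3 each). SLC2A3 was at 52.5, 51.6 and 53.2 CPM and at 25.4, 21 and 30.6 CPM (log2 fold change -1.03, SE 0.15, edgeR adjusted p = 0.00438), and it lay under the fold threshold with library sizes alone (-0.94) and without shMITF replicate 2 (-0.91). Of all genes tested, 20.3% had every silenced sample above every control, and 20.6% every one below. SLC16A3 was at 18.8, 18.5 and 16.6 CPM and at 36.1, 33 and 59.7 CPM (log2 fold change 1.25, SE 0.23, edgeR adjusted p = 0.00852), all silenced samples above all controls. Its call was lost without shMITF replicate 3 (0.94), shSCR replicate 2 (edgeR adjusted p = 0.0509) or shSCR replicate 3 (edgeR adjusted p = 0.0533).

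PDK3 (-0.76), ALDOC (-0.71) and PFKP (-0.62) fell and ANKRD37 (0.63) rose past the test alone. PFKFB4 stood at 172, 180 and 164 CPM in shSCR and at 24.5, 68.9 and 119 CPM with shMITF. Its groups did not overlap, but the silenced samples were far apart, and the log2 fold change of -1.28 (SE 0.45) had an edgeR adjusted p of 0.0858. It was called in the fit over all Hermes 3A groups (-1.29, edgeR adjusted p = 0.0395) and without shMITF replicate 3 (-1.88, edgeR adjusted p = 0.0311). SLC2A1 was at 47.4, 48.4 and 39.9 CPM and at 82, 43.3 and 57.2 CPM, with overlap and a log2 fold change of 0.43 (edgeR adjusted p = 0.216).

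The difference between the lines was tested directly as an interaction. For shBRG1, 1 member was called above 0 (a higher effect in 501Mel), against 12% of 21697 genes, and 10 below 0, against 14.9%. Among the 13000 genes that averaged 100 counts or more, the shares were 8.29% and 17.7%, with 1 and 10 of 37 members. With library sizes alone 6 members were below 0, with 3696 genes above and 2281 below in place of 2610 and 3224. Below 0 were CA12, PFKP, EPAS1, PDK3, HK1, GPI, BNIP3L, SLC16A3, PGAM1 and ENO2, with differences between -4.63 and -1.01. The lowest in size, PGAM1 and ENO2, lay under the fold threshold with DESeq2 (-0.93 each), with library sizes and without 501Mel shSCR1 replicate 1 or shBRG1 replicate 1, and ENO2 also without shBRG1 replicate 2. SLC16A3 (-0.86) and BNIP3L (-0.94) lay under it with library sizes as well. For PFKP, with log2 fold changes of -3.29 and -0.76, the difference was -2.56 (SE 0.064, edgeR adjusted p = 7.17e-29). EPAS1 fell in 501Mel and rose slightly in Hermes 3A, a difference of -2.13 (SE 0.064), and the same held for HK1, with a difference of -1.60 (SE 0.06). For EGLN3 the difference was 1.34 (SE 0.18).

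For shMITF, 1 member was called above 0, against 2% of 19284 genes, and 2 below 0, against 0.643%. Among the 12366 genes that averaged 100 counts or more, the shares were 2.81% and 0.922%, with 1 and 2 of 37 members. SLC2A1 differed by 1.96 (SE 0.36, edgeR adjusted p = 0.0125), PGAM1 by -1.05 (SE 0.22) and BNIP3L by -1.04 (SE 0.2). All 3 calls were lost in some fits that left out a sample: SLC2A1 without shSCR2 replicate 2, 501Mel shMITF replicate 2 or Hermes 3A shSCR replicate 2 (edgeR adjusted p of 0.0778, 0.0824 and 0.0504), and no member was called below 0 without shSCR2 replicate 1, 501Mel shMITF replicate 2 or any single Hermes 3A shSCR sample. ENO2, called down with shMITF in both lines, was not called in this test. In 501Mel these differences are relative to shSCR2 and take in its gap from shSCR1. SLC2A1 averaged 55.4 RPKM in shSCR2, 150 in shSCR1 and 284 with 501Mel shMITF. The same means were 117, 73.7 and 47.5 RPKM for PGAM1, and 31.4, 42 and 11.7 RPKM for BNIP3L. With the pooled control the 501Mel change of SLC2A1 was 1.37 (edgeR adjusted p = 0.161).

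**Figure D4:**
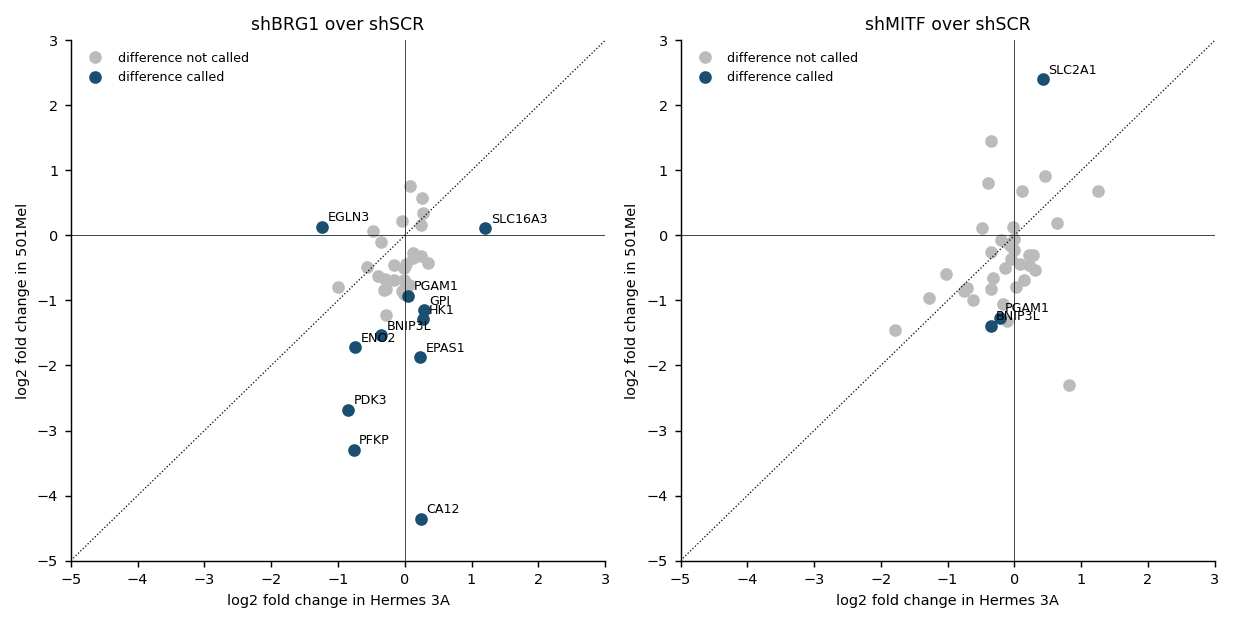
Log2 fold change in 501Mel (vertical axis) against that in Hermes 3A (horizontal axis) for members tested in both lines, with shBRG1 on the left and shMITF on the right. Dark named points are genes whose difference between lines was called, and the dotted line marks equal change. With shBRG1, PFKP, PDK3, EPAS1 and CA12 lie far below the line, and with shMITF SLC2A1 lies above it. The 501Mel shMITF values are relative to shSCR2.

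The levels themselves differed between lines and genes. Per kilobase, GAPDH, ENO1 and ALDOA had the highest RPKM of the members in 501Mel shSCR1, with means of 507, 543 and 428 RPKM, and in Hermes 3A shSCR GAPDH led at 847 RPKM, followed by LDHB at 391 RPKM. Lengths join all annotated exons of a gene, 2983 bases for LDHB and 8571 for PKM, so the order of genes depends on them. SLC2A1 averaged 150 RPKM in shSCR1, 55.4 RPKM in shSCR2 and 10.7 RPKM in Hermes 3A shSCR, in an order in which no samples of neighbouring groups overlapped. PFKFB4 averaged 31.4 RPKM in Hermes 3A shSCR and 3.7 RPKM in shSCR1, and SLC16A3 2.23 and 0.178 RPKM. CA9 was near 0 in Hermes 3A, with 0 to 5 counts in each sample. The lines were grown with different supplements, so line and culture cannot be told apart.

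Another 86 genes of the same pathways (other isozymes and carriers, the pyruvate dehydrogenase complex, glycogen and pentose phosphate enzymes, oxygen-sensing partners and other HIF targets) were read in the same fits. In 501Mel with shBRG1, 11 of the 75 tested were called up and 18 down, against 21.7% and 17.4% of all genes tested. The pyruvate dehydrogenase phosphatase PDP1 had a log2 fold change of 2.41 and the haem oxygenase HMOX1 of 2.07. LDHD, the D-lactate dehydrogenase, had a log2 fold change of -3.24, the liver-type pyruvate kinase PKLR of -3.16 and the transcription factor BHLHE41 of -3.04. PDP1, which removes the phosphate that PDK3 adds, rose from 74.7 ± 6.3 to 397 ± 6.2 CPM (SD, n = 3 each) as PDK3 fell.

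In 501Mel with shMITF 4 of 72 were called up and 3 down, against 5.59% and 3.4% of all genes. SLC2A8 (1.99) and PDP1 (1.65) rose, and TIGAR (-1.40), PKLR (-1.23) and BHLHE41 (-1.23) fell on the log2 scale. Against the pooled scramble groups the calls of PDP1 (1.24, edgeR adjusted p = 0.0666), TIGAR (-0.84, edgeR adjusted p = 0.335) and PKLR (-0.71, edgeR adjusted p = 0.398) were lost. PDP1 was not called without shSCR2 replicate 1 or 2 (edgeR adjusted p of 0.431 and 0.336), and PKLR not without shMITF replicate 1 (edgeR adjusted p = 0.05001). In Hermes 3A with shBRG1 2 of 76 were called up and 5 down, against 5.78% and 3.47%, with SLC2A12 at 1.02, BPGM, the bisphosphoglycerate mutase, at -1.36, LOX at -1.16 and BHLHE41 at -1.13. The calls of LOX and BHLHE41 were lost in the fit over all Hermes 3A groups (edgeR adjusted p of 0.0832 and 0.204), and SLC2A12 lay under the fold threshold without shSCR replicate 1 or 2 or shBRG1 replicate 3. In Hermes 3A with shMITF 3 of 76 were called up and 4 down, against 3.35% and 4.04%. ANGPTL4, a secreted lipase inhibitor and HIF and PPAR target, rose by 5.48 (0.627 ± 0.13 to 28.5 ± 18 CPM, SD, n = 3 each), VEGFA by 1.57 and PDK4 by 1.17. SLC16A7 (-1.52), HKDC1 (-1.51) and PYGL (-1.03) fell. PYGL was not called with library sizes alone (-0.95) or without any single sample other than shMITF replicate 1, HKDC1 not without shSCR replicate 2 or 3, and PDK4 not without shSCR replicate 2 or 3 or shMITF replicate 1.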

How the data were processed

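Total RNA depleted of ribosomal RNA was sequenced after a duplex-specific nuclease step, which lowers the most abundant cDNAs and may compress differences between very abundant glycolytic RNAs. The authors deposited whole-number read counts per Ensembl gene, 1 set per sample, not normalized. The submitters' processing notes name CASAVA 1.8, TopHat 1.4.1, Bowtie 0.12.7 and hg19, and the counting program and annotation release are not given in the sources used here. Counts could be shared with near-identical pseudogenes of GAPDH, LDHA, PGAM1, TPI1 and BNIP3.

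Samples were grouped by their titles. The deposited files list 42224 genes for most groups, 41467 for 501Mel shSCR2 and shMITF and 34033 for Hermes 3A shMITF, whose control lists 42224, and a gene missing from any sample of a comparison was left out of that comparison. Silenced and scramble samples of each set were compared by edgeR 4.0.16 (R 4.3.3), with genes filtered by expression, TMM scaling, quasi-likelihood tests and Benjamini-Hochberg adjustment over all genes tested. Differences between effects were contrasts in a joint fit. Fits were tested on simulated data. RPKM used GENCODE 29 exon lengths, with all 19 samples scaled together. The length of a gene joined all of its annotated exons and can exceed that of the transcripts present. Depth was 29158502 to 78857900 counts per sample. Alternatives were DESeq2 1.42.0, library sizes, no filter, the replicate number as a block, a fit over all groups of a line, pooled scramble groups, no fold threshold, and leaving out each sample. The share of genes called among those that averaged 100 counts or more, and the alternatives for pathway genes, were added after seeing the data. The members and lists were chosen with earlier results of these data known.

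All 38 members are described, and in each comparison up to 3 genes with the highest and 3 with the lowest log2 fold change were named from the pathway lists among called genes with non-overlapping groups and a mean of at least 100 counts in the higher group. An item that this rule names is not reported here. Figures were drawn with matplotlib 3.10.9.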

Additional observations from a re-analysis of the deposited data

Results flagged for a closer look

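Members whose effect of silencing differed between 501Mel and Hermes 3A by the interaction test are listed with the difference of log2 fold changes, 501Mel minus Hermes 3A. For shBRG1 the differences were -4.63 for CA12, which held 2 to 10 counts per 501Mel shBRG1 sample, -2.56 for PFKP, -2.13 for EPAS1, -1.86 for PDK3, -1.60 for HK1, -1.47 for GPI, -1.21 for BNIP3L, -1.13 for SLC16A3, -1.01 for PGAM1, -1.01 for ENO2 and 1.34 for EGLN3. SLC16A3 and EGLN3 were called in Hermes 3A and not in 501Mel, and the other members listed had a lower log2 fold change in 501Mel. For shMITF the differences were 1.96 for SLC2A1, -1.05 for PGAM1 and -1.04 for BNIP3L. In 501Mel these are relative to shSCR2, where SLC2A1 averaged 55.4 RPKM, against 150 in shSCR1.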

How the results depend on the processing

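The samples carry the same replicate numbers in each group, but same-numbered samples did not deviate together in the comparisons with 3 samples a group (correlations between -0.05 and 0.05), and in 501Mel shMITF, with 2 samples a group, the correlation was 0.13. With the replicate block the calls numbered 0 up and 10 down, 2 up and 6 down, 1 up and 1 down, and 1 up and 2 down among the members in the 4 comparisons, as without it. In 501Mel shBRG1, library sizes in place of TMM gave 1 member up and 6 down, the pooled scramble control 1 up and 11 down, and no fold threshold 5 up and 29 down (8442 and 8022 of all genes). With the pooled control BNIP3 (1.05) was called up. PGAM1 (-1.19), PFKFB3 (-1.04) and LDHB (-1.28) were called down there, and PFKL and CA9 were not. SLC2A1 (0.24), HK2 (0.081), ARNT (0.0066) and P4HA1 (0.037) turned positive with library sizes, SLC2A1 (0.36) and LDHA (-0.17) turned with the pooled control, and EGLN3 (0.14) lay between -0.0020 and 0.20 with 1 sample left out, below 0 without shSCR1 replicate 3. In 501Mel shMITF, the pooled control gave 1 up and 2 down (327 and 248 of all genes) and turned NDRG1 (-1.29), the fit over all groups 1596 and 922 genes, and no fold threshold 4 and 13 members (1775 and 1862 genes). In Hermes 3A shBRG1, no fold threshold gave 11 and 16 members (4862 and 4934 genes). The fit over all groups gave 0 members called down past the fold threshold. In Hermes 3A shMITF, no fold threshold gave 2 and 5 members (1296 and 1510 genes), and library sizes 1 member down. For differences of effects, library sizes gave 6 members below 0 between lines for shBRG1 and 4 above 0 for shBRG1 minus shMITF, and DESeq2 gave 2 above and 4 below 0 (618 and 286 genes) for shMITF between lines. The causes were not tested, except that dropping the fold threshold can only add calls.

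Leaving out 1 sample gave in 501Mel shMITF 2 to 4 members up and 3 to 10 down (543 to 1273 genes up), in Hermes 3A shBRG1 1 to 2 members down, and in Hermes 3A shMITF 0 to 2 members up (236 to 692 genes up and 354 to 898 down). For shMITF between lines it gave 0 to 2 members above 0 and 0 to 3 below (129 to 561 and 23 to 242 genes), and for shBRG1 minus shMITF in 501Mel 1 to 4 members above 0. Of the single-gene values printed here, 630 kept their direction and call under the other settings, 31 lost and 9 gained a call, and 7 changed sign. With 1 sample left out 806 kept them, 63 lost and 12 gained a call, and 1 changed sign. With 2 samples a group in 501Mel shMITF, leaving out a sample assumes that the remaining sample varies like the other group. CA9, CA12, EGLN3 and SLC16A3 in 501Mel rest on few counts.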
